A study of Mus musculus with 67 samples.

Results

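Ly6Cint monocytes of host mice were compared with Ly6C+ monocytes of host mice, in blood and in spleen, across all genes. The comparison took 8 of the 26 libraries of the cell transfer experiment, chosen by their labels for sorted population and tissue: 2 of Ly6Cint and 2 of Ly6C+ cells from blood, and the same from spleen. The whole series has 67 libraries of mouse monocytes and marrow progenitors, sequenced from RNA captured with oligo-dT. All 8 came from C57BL/6 mice aged 8 weeks, and carry the label of host cells at 24 h in the transfer experiment. The sample titles name the sort by Gr1 (P or Int), while the transfer label calls the same cells Ly6C+ or Ly6Cint. Both populations share that label, and how host and transferred cells were told apart is not stated in the sources used here. The 4 host Ly6C- libraries (2 per tissue) served as a further population, and 7 blood libraries of 7-week C57BL/6 mice with no transfer in their label (3 Ly6Cint, 4 Ly6C+) served as an independent set. The labels do not say whether replicates A and B are separate animals or pools, so what the p-values measure could be the spread between technical repeats.

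Mouse monocytes leave the bone marrow as classical Ly6C+ cells, which carry the chemokine receptor CCR2 and enter inflamed tissue. Part of them convert in the circulation into Ly6C- cells, which patrol the vessel wall, live longer and depend on the nuclear receptor NR4A1. Cells with intermediate Ly6C hold both converting cells and, in many gates, monocytes that carry MHC class II, the molecules that present peptides to CD4 T cells. C/EBP factors, KLF4, IRF8 and PU.1 (encoded by Spi1) are the transcription factors most often named in monocyte development.

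Expression is given in RPM, reads per 1000000 reads that fall on listed genes. The 8 libraries held an estimated 502762 to 1180968 reads, with a median of 858568, so that 1 read was worth 0.847 to 1.989 RPM. Blood Ly6Cint replicate A was the shallowest. Pearson's r between the replicates of a group, over genes, was 0.915 in blood Ly6Cint, 0.944 in blood Ly6C+, 0.935 in spleen Ly6Cint and 0.954 in spleen Ly6C+ cells. Markers of other cells were present. Summed erythroid markers followed the tissue: 4567 to 10310 RPM in blood Ly6Cint, 4332 to 7749 RPM in blood Ly6C+ and 112.6 to 1132 RPM in the 4 spleen libraries. Summed neutrophil markers were 225.2 to 286.6 RPM in Ly6Cint and 421.6 to 727.2 RPM in Ly6C+ cells, with Ngp at 0 in all 8 libraries. B cell markers summed to 187.6 to 197.2 RPM in spleen Ly6Cint and to 66.6 to 113.5 RPM in the other 6 libraries, and T and NK cell markers to 170.0 to 184.1 against 48.21 to 97.3 RPM. Pax5 and Eomes, factors that define B cells and NK or effector T cells, were at 0 in all 8 libraries. Ngp, Pax5 and Eomes were each the only 1 of their list at 0 in all 8. At this depth values under 3 reads cannot be told from 0. In bulk RNA, fewer cells of a type and less RNA per cell cannot be told apart.

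The gene of the antigen in the population labels came first. Ly6c2, which encodes the Ly6C antigen, stood at 287, 96.4, 456 and 333 RPM in Ly6Cint cells (here and below in the order blood A, blood B, spleen A, spleen B). In Ly6C+ cells it stood at 2129, 2358, 1984 and 1999 RPM, and the populations did not overlap in either tissue. The log2 ratio of Ly6Cint over Ly6C+ cells was -3.05 ± 0.28, adjusted p = 2.56e-06 (standard error; limma fit with tissue as a block, on log2 of RPM plus 1). In host Ly6C- cells Ly6c2 was lower again, at 18.4, 16.2, 67.5 and 37.3 RPM, so the order of the 3 populations matched their labels. As the populations are named by this antigen, while the titles name the sort by Gr1, its difference checks the labels and is not a finding. Ly6c1 lies close in sequence, and how reads were divided between the pair is not stated.

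Of 11068 genes tested, 280 were higher in Ly6Cint cells (2.53% of those tested) and 375 lower (3.39%) at a Benjamini-Hochberg adjusted p under 0.05, and the median log2 ratio of all tested genes was -0.043. Differences of at least 4-fold were mostly rises, 86 genes against 53 that fell. In 220 of the 280 higher genes all 4 Ly6Cint libraries lay above all 4 Ly6C+ libraries, and in 318 of the 375 lower genes all 4 lay below. Over all tested genes, such a separation was seen upward in 427 and downward in 634. Every one of the called genes had the same sign in blood as in spleen, which a fit on the average of both tissues favours by its construction. Tested by tissue, 128 genes were higher (1.16%) and 176 lower (1.59%) in blood, and 63 were higher (0.569%) and 37 lower (0.334%) in spleen. The counts depended on single libraries. Over both tissues 171 higher and 217 lower genes were called without spleen Ly6Cint replicate B, 200 lower without blood Ly6C+ replicate A and 240 lower without spleen Ly6C+ replicate A. In spleen alone 0 genes were called by limma without Ly6Cint replicate B or Ly6C+ replicate A, 1 without Ly6C+ replicate B, and 20 higher and 23 lower without Ly6Cint replicate A. The spleen genes called lower were also 66 and 70 without blood Ly6Cint replicates A and B, and 23 without blood Ly6C+ replicate A. In blood alone the calls were 38 higher and 25 lower without Ly6C+ replicate A and 74 lower without Ly6C+ replicate B. They were 80 and 115 without spleen Ly6Cint replicate A, 79 and 115 without its replicate B, 65 and 58 without spleen Ly6C+ replicate A and 65 and 57 without its replicate B, which enter the blood test through the shared spread. With upper quartile scaling spleen gave 71 higher and 26 lower genes.

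**Figure D1:**
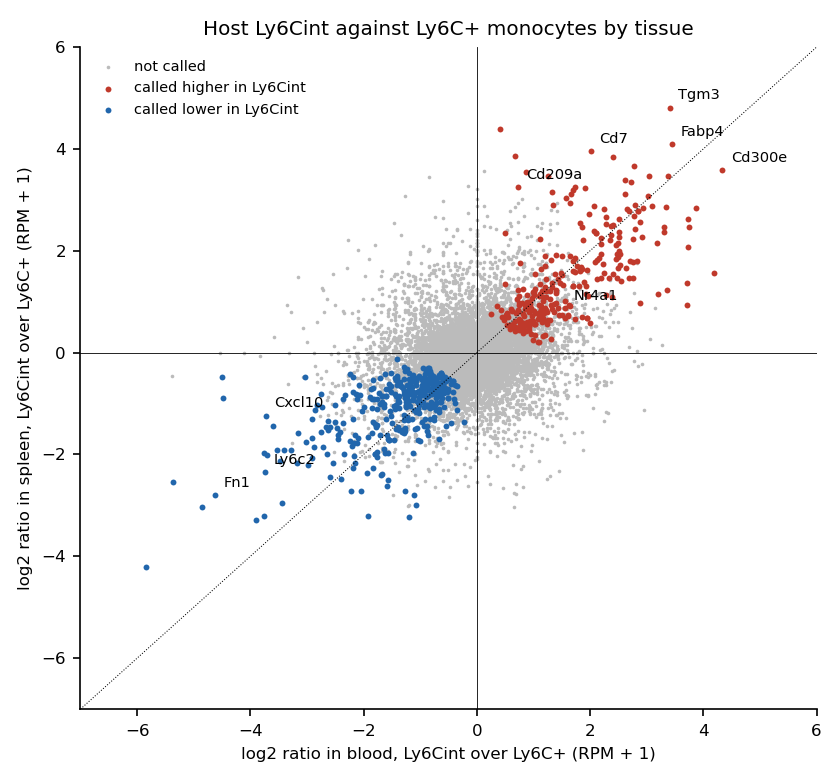
Log2 ratio of host Ly6Cint over Ly6C+ monocytes in blood (x axis) and spleen (y axis), on RPM plus 1, for the 11068 genes tested; red points are the 280 genes called higher and blue points the 375 called lower over both tissues, and the dotted line marks equal ratios. Called genes lie to the upper right and the lower left, with Cd300e (4.33 in blood, 3.58 in spleen) near the upper end.

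Genes that mark Ly6C+ monocytes fell as a group. Of 25 tested, 16 fell and 0 rose, with a median log2 ratio of -1.36 against -0.043 over all genes. The 16 include Ly6c2, whose fall only checks the labels. When single libraries were left out the falls were 13 to 16. For this list and every list below, the share over all tested genes was 2.53% higher and 3.39% lower. The lists were chosen with earlier results of these data known, so their counts are a description. Vcan, the matrix proteoglycan versican, was at 0, 0, 20.2 and 1.31 RPM in Ly6Cint and 78, 40.8, 201 and 82 RPM in Ly6C+ cells (-5.03 ± 0.57, adjusted p = 2e-05), the largest fall among the genes named here. It was undetected in both blood Ly6Cint libraries and low in spleen.

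F13a1, the A chain of coagulation factor XIII, went from 1094, 1022, 1179 and 1058 RPM in Ly6C+ to 143, 61.8, 344 and 187 RPM in Ly6Cint cells (-2.80 ± 0.27, adjusted p = 3.68e-06). Fn1, fibronectin, was at 949, 891, 1758 and 1143 RPM and 79.7, 16.2, 462 and 89 RPM in the same order (-3.71 ± 0.46, adjusted p = 4.9e-05). Spleen Ly6Cint replicate A was the highest of the 4 Ly6Cint libraries for Vcan, F13a1 and Fn1. Chil3, a chitinase-like lectin, fell by less (-2.23 ± 0.26, adjusted p = 2.36e-05): Ly6Cint cells held 352, 246, 1066 and 348 RPM and Ly6C+ cells 1780.3, 1025, 3392 and 2569.8 RPM, and the highest Ly6Cint library, again spleen A, lay above the lowest Ly6C+ library. Ccr2, the receptor by which classical monocytes follow CCL2, was at 877, 377, 1049.6 and 1057 RPM against 2104, 1542, 2158 and 2295 RPM (-1.36 ± 0.21, adjusted p = 0.000452). All 4 Ly6Cint values lay below all 4 Ly6C+ values, at a fold of 2.57.

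Other genes with large falls had varied roles. Mmp8, a neutrophil-type collagenase, fell (-3.94 ± 0.67, adjusted p = 0.00109) from 127, 98.6, 174 and 96.4 RPM to 14, 0, 43.4 and 4.82 RPM, and Cd177, a neutrophil and monocyte surface antigen, fell (-3.48 ± 0.44, adjusted p = 5.41e-05) from 140.2, 109.6, 183 and 129 RPM to 6.13, 11, 47.3 and 4.82 RPM. Both belong to the list of neutrophil markers as well, 2 of whose 12 tested members fell and 0 rose. The summed neutrophil markers given above moved the same way, and their part in these falls was not tested. Padi4, a peptidylarginine deiminase, and Slpi, a protease inhibitor, fell too, with log2 ratios of -3.59 and -2.38. The same was seen for F5, coagulation factor V (-2.66), C1rl, a complement-like protease (-2.86), Pde2a, a phosphodiesterase (-2.51), Plcb1, a phospholipase C (-2.47), Atrnl1 (-2.44) and Ms4a8a (-2.49). Among 24 S100 and granule protein genes 10 fell and 0 rose, with a median of -0.65. Lyz2, the macrophage lysozyme, was at 7614, 4860.4, 10936 and 7200.5 RPM in Ly6Cint and 15396, 14307, 23267 and 18378 RPM in Ly6C+ cells (-1.25 ± 0.21, adjusted p = 0.000778). S100a6, a calcium-binding protein, showed a smaller fall (-0.91 ± 0.15, adjusted p = 0.000849), and so did Ncf1, a subunit of the phagocyte oxidase (-0.91 ± 0.16, adjusted p = 0.00146). The count of 10 was 6 to 10 when 1 library at a time was left out, with 6 without blood Ly6C+ replicate B and 6 without spleen Ly6Cint replicate B.

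Genes of the Ly6C- monocyte, a list chosen with earlier results of these data known, rose together. Of 30 tested, 26 were higher and 0 lower, with a median log2 ratio of 2.00. The number stayed between 25 and 27 when each library was left out in turn. Cd300e, an activating immunoglobulin-like receptor, was at 320.3, 386, 139 and 161 RPM in Ly6Cint cells and 9.2, 28.9, 14 and 9.64 RPM in Ly6C+ cells (3.96 ± 0.29, adjusted p = 4.05e-07), a fold of 15.5. Fcgr4, the mouse IgG receptor FcγRIV, stood at 356, 221, 141 and 142 RPM against 36.4, 50.4, 22.8 and 17.1 RPM (2.73 ± 0.20, adjusted p = 4.05e-07). Itgax, the integrin CD11c, was at 244, 236, 235 and 169 RPM against 25.9, 35.9, 18.4 and 39.9 RPM (2.88 ± 0.23, adjusted p = 6.25e-07). For these 3 genes every Ly6Cint library lay above every Ly6C+ library.

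Nr4a1 was at 1589, 1865, 913 and 1002 RPM in Ly6Cint and 488, 702, 570.4 and 476 RPM in Ly6C+ cells (1.22 ± 0.17, adjusted p = 0.000155). Its blood values were the higher ones, the log2 ratio being 1.56 in blood (adjusted p = 0.00202) and 0.88 in spleen (adjusted p = 0.0834). Eno3, the muscle-type enolase, rose from 64.4, 166, 46.4 and 64 RPM to 718, 1091, 307 and 538 RPM (2.98 ± 0.25, adjusted p = 9.28e-07). Tgm2, tissue transglutaminase, rose (3.10 ± 0.26, adjusted p = 9.28e-07), as did Dusp16, a phosphatase of stress kinases (3.17 ± 0.34, adjusted p = 9.53e-06), and Slc12a2, a sodium, potassium and chloride cotransporter (3.11 ± 0.37, adjusted p = 3.49e-05). A further 4 genes outside that list were among those with the largest rises. Tgm3, another transglutaminase, was at 75.8, 225, 132 and 68.4 RPM in Ly6Cint and 6.57, 19.3, 5.26 and 0.877 RPM in Ly6C+ cells (4.11 ± 0.46, adjusted p = 1.6e-05), Adrb1, the beta-1 adrenergic receptor, had a log2 ratio of 3.35, G0s2, an inhibitor of triglyceride breakdown, one of 3.22, and Cd7, an immunoglobulin-family receptor, one of 2.98.

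**Figure D2:**
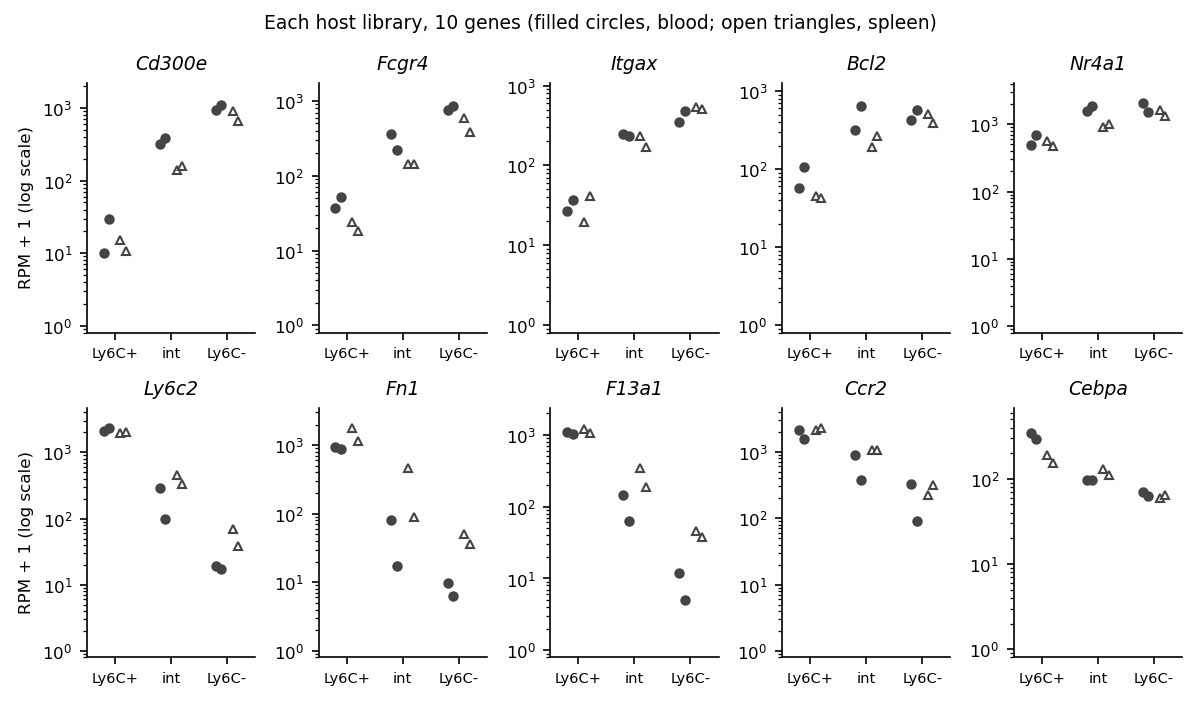
RPM plus 1 (log axis) of 10 genes in each of the 12 host libraries, by sorted population (x axis); filled circles are blood and open triangles spleen, with 2 libraries per tissue and population. In the upper row Ly6Cint libraries lie above all Ly6C+ libraries, and in the lower row below them; Nr4a1 and Cd300e stood higher in blood than in spleen Ly6Cint cells, while Fn1 and F13a1 stood higher in spleen.

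Surface receptors moved both ways. Of 32 Fc and inhibitory receptor genes tested, 8 rose and 6 fell (median 0.06). Beside Fcgr4 and Cd300e the rises were those of Cd300ld, another receptor of the CD300 family (1.97 ± 0.17, adjusted p = 1.04e-06), Lair1, an inhibitory collagen receptor (1.75 ± 0.17, adjusted p = 3.11e-06), Treml4 (1.93 ± 0.22, adjusted p = 1.6e-05), Lilra5, Trem1 and Trem3. The falls included Fcgr1 and Fcgr3, the high-affinity IgG receptor and a low-affinity one, with log2 ratios of -0.75 and -0.51. Fcgr1 averaged 136 ± 24.3 RPM in Ly6Cint and 231 ± 48.3 RPM in Ly6C+ cells, and Fcgr3 552 ± 75.8 RPM and 785 ± 78.4 RPM (SD, n = 4 each). Without blood Ly6C+ replicate A the list had 3 falls and a median of -0.02. Chemokine receptor and adhesion genes gave 8 rises and 4 falls of 32 (median 0.53). Cd9, a tetraspanin, was at 145, 195, 93.3 and 145 RPM against 14.9, 40.8, 7.89 and 14 RPM (3.03 ± 0.30, adjusted p = 4.29e-06). S1pr5, a sphingosine-1-phosphate receptor of cells leaving the marrow, was at 266, 444, 92 and 175 RPM against 27.2, 109.6, 31.5 and 49.5 RPM (2.14 ± 0.34, adjusted p = 0.000613), with overlap between spleen Ly6Cint and blood Ly6C+ libraries. Cx3cr1, the fractalkine receptor used with Ly6C to sort monocytes, did not pass the test: 893, 694, 717 and 706 RPM in Ly6Cint and 592, 620.2, 558 and 664 RPM in Ly6C+ cells (0.30 ± 0.14, adjusted p = 0.266).

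Genes of lipid uptake and storage gave 6 rises and 3 falls among 29 scavenger, lipid and efferocytosis genes (median 0.44). Fabp4, a fatty acid binding protein, was at 229, 329, 122 and 222 RPM in Ly6Cint and 11.4, 50.4, 5.26 and 14 RPM in Ly6C+ cells (3.77 ± 0.37, adjusted p = 4.29e-06). Cd36, the fatty acid scavenger receptor, was at 85.4, 134, 37.7 and 68.4 RPM against 9.2, 15.8, 4.38 and 3.07 RPM (3.26 ± 0.32, adjusted p = 4.33e-06). The lowest Ly6Cint library was spleen A for both. Pparg, a nuclear receptor that drives both of these genes in other cells, rose too (2.07 ± 0.30, adjusted p = 0.000238), from 19.8 ± 6.43 RPM to 94.2 ± 47.1 RPM (SD, n = 4). Lpl, lipoprotein lipase, went the other way, from 233, 213, 262 and 189 RPM to 73.6, 18.8, 66.2 and 35.9 RPM (-2.35 ± 0.30, adjusted p = 6.91e-05), and so did Msr1, scavenger receptor A (-1.26 ± 0.18, adjusted p = 0.000185).

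Among 26 survival and death genes, 4 rose and 2 fell. Bcl2, which blocks mitochondrial apoptosis, was at 312, 634, 189 and 264 RPM in Ly6Cint and 56.5, 106, 43.8 and 41.2 RPM in Ly6C+ cells (2.44 ± 0.23, adjusted p = 2.56e-06). The other rises were Bcl2a1b (2.84 ± 0.24, adjusted p = 1.04e-06), Bcl2a1d (3.00) and Bcl2a1a (2.91), near-identical copies of a Bcl2 relative whose reads cannot be assigned with certainty. Bcl2l11, which encodes the death factor BIM, fell from 87.2, 64, 93.3 and 128 RPM to 33.7, 38.1, 46 and 50.4 RPM (-1.10 ± 0.20, adjusted p = 0.00208), and Bid, another death factor, fell less (-0.73). The list had 1 fall when any 1 of blood Ly6Cint replicate B, blood Ly6C+ replicate B, spleen Ly6Cint replicate B and the 2 spleen Ly6C+ replicates was left out.

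The chains of MHC class II were higher in Ly6Cint cells. H2-Aa stood at 5742, 2649, 8903 and 9551 RPM in Ly6Cint and 1645, 845, 747 and 1252 RPM in Ly6C+ cells (2.49 ± 0.30, adjusted p = 3.45e-05). H2-Eb1 was at 3151, 1046, 3335 and 4533 RPM against 429, 274, 233 and 315 RPM (3.12 ± 0.30, adjusted p = 3.84e-06), and H2-Ab1 at 2683, 1036, 3426 and 4026 RPM against 865, 303, 311 and 523 RPM (2.45 ± 0.34, adjusted p = 0.000151). In all 3 genes blood Ly6Cint replicate B was the lowest Ly6Cint library, yet above every Ly6C+ library. Cd74, the invariant chain that guides class II to the endosome, was at 7723, 4508, 11666 and 13686 RPM against 2787, 1923, 1447 and 1978 RPM (2.12 ± 0.27, adjusted p = 4.9e-05). Ciita, the transactivator of all these genes, was at 258, 84.6, 351 and 341 RPM against 146, 35.1, 81 and 171 RPM, with overlap between the populations (1.29 ± 0.36, adjusted p = 0.0419), a call lost in 10 of its 19 alternatives.

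Over the list of 17 class II genes tested, 6 rose and 0 fell, the last of the 6 being H2-Oa (1.79 ± 0.40, adjusted p = 0.00965), and the median log2 ratio was 0.73. Leaving out 1 library at a time gave 5 to 8 rises and medians of 0.49 to 1.15. The rises were 8 without blood Ly6Cint replicate B and 7 without blood Ly6C+ replicate A, and 1 gene fell without spleen Ly6Cint replicate A. Tested by tissue, 5 rose and 0 fell in spleen (median 1.55), and 3 rose and 1 fell in blood (median 0.56). Over all tested genes 0.569% were higher and 0.334% lower in spleen, and 1.16% and 1.59% in blood. The peptide exchange factors H2-DMa (-0.04 ± 0.23, adjusted p = 0.955) and H2-DMb1 (0.73 ± 0.31, adjusted p = 0.216) did not pass, nor did the regulatory factors Rfx5, Rfxap and Rfxank or the protease Ctss. In the spleen Ly6Cint libraries, the summed dendritic cell genes were at 1221 to 1228 RPM, against 453.4 to 458.9 RPM in spleen Ly6C+ and 329.5 to 674.7 RPM in blood Ly6Cint cells. By tissue, their median log2 ratio was 1.33 in spleen, with 1 rise and 0 falls, and -0.13 in blood, with 0 rises and 1 fall. Of 16 such genes tested 1 passed, Cd209a, a lectin of dendritic cells and class II-positive monocytes: 312, 88.1, 530.3 and 487 RPM in Ly6Cint against 135, 74.5, 45.6 and 60.5 RPM in Ly6C+ cells (1.99 ± 0.41, adjusted p = 0.00514). The count was 3 without blood Ly6Cint replicate A or B, 0 without spleen Ly6Cint replicate B, and 2 with quantile or upper quartile scaling. Zbtb46, a factor of conventional dendritic cells, averaged 4.49 RPM in Ly6Cint and 0 in Ly6C+ cells, and Xcr1, Itgae and Ccl17 did not reach the filter. The part of dendritic cells and of the B cells noted above in the class II values was not tested.

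The promoters of 2 of these chains are shown for the Y box, the element by which NF-Y takes part in class II transcription. Each line gives the 250 bases before the start, from RefSeq on the build GRCm38.p6, with CTGATTGG (searched on both strands) in capitals. H2-Aa lies on the minus strand (chr17:34287824-34288073), and H2-Eb1 on the plus strand (chr17:34305617-34305866).
H2-Aa: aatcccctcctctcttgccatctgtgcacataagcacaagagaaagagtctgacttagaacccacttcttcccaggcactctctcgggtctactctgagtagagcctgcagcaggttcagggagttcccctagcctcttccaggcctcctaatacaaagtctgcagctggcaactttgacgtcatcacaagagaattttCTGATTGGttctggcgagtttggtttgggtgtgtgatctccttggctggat
H2-Eb1: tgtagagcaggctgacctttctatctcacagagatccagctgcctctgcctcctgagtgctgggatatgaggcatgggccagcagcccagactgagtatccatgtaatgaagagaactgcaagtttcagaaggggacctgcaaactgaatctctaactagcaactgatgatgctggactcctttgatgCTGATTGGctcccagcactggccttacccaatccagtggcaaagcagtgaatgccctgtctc
The element began 51 bases before the start in H2-Aa and 62 in H2-Eb1. Among genes of the class II list with an entry in the table of promoters, it was in 3 of the 3 that rose (H2-Aa, H2-Eb1 and H2-Oa) and in 1 of the 9 that did not pass. That list holds regulatory factors and a protease beside the chains. Over all tested genes with an entry, 519 of 8481 held it (6.12%), and over all 27025 genes with one, 4.43% did. It was in 12 of 202 genes called higher (5.94%) and in 14 of 282 called lower (4.96%). H2-Ab1, Cd74 and Ciita had no entry in the table and were not searched. A match of letters is a description of the window and not a bound site.

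**Figure D3:**
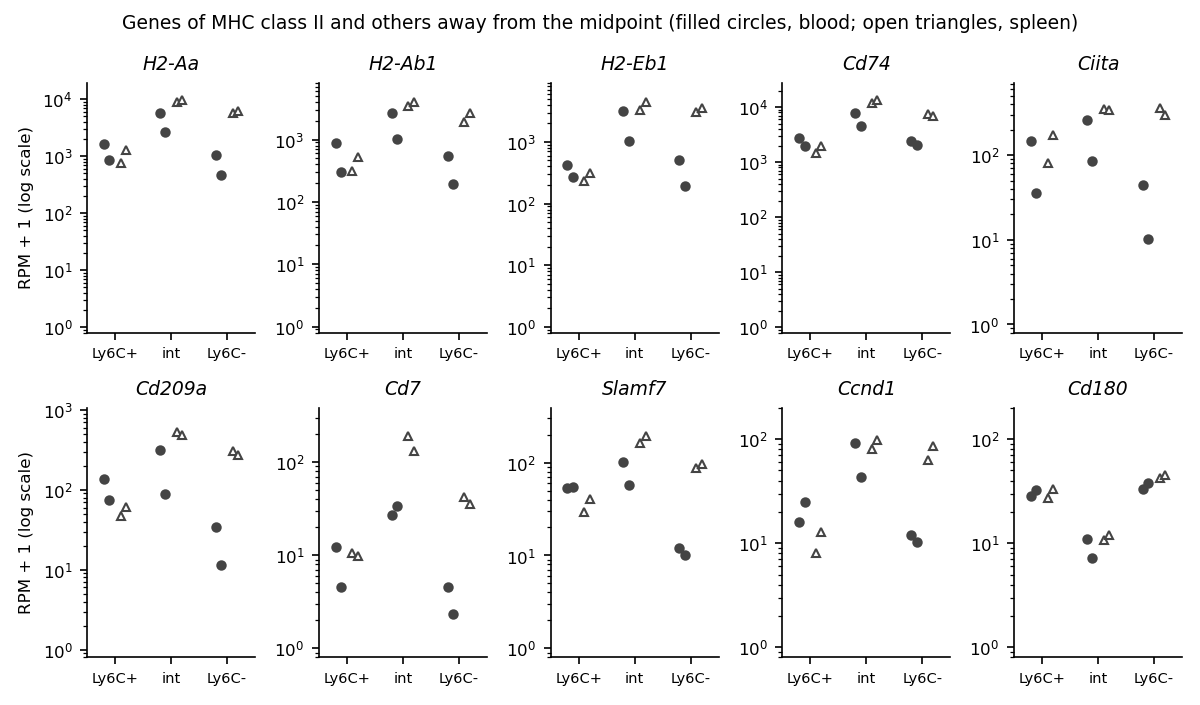
RPM plus 1 (log axis) of 10 genes in the 12 host libraries, by sorted population (x axis); filled circles are blood and open triangles spleen. For H2-Aa, H2-Ab1, Cd74, Cd7 and Slamf7 the Ly6Cint libraries of a tissue lie above both neighbours in that tissue, while Cd180 is lowest in Ly6Cint cells.

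Interferon response genes were lower in Ly6Cint cells. Of 38 tested, 18 fell and 0 rose, with a median log2 ratio of -0.64. Isg15, a ubiquitin-like protein and a standard target of type I interferon, was at 191, 81.9, 195 and 213 RPM in Ly6Cint and 450.0, 323, 312 and 358 RPM in Ly6C+ cells (-1.16 ± 0.23, adjusted p = 0.004). Cxcl10, a chemokine for T cells, was at 14, 0.876, 57 and 29.8 RPM against 90.7, 53, 95.9 and 102 RPM (-2.48 ± 0.53, adjusted p = 0.00728). In both, blood Ly6Cint replicate B was the lowest of the 8 libraries. Stat2, a signal carrier of the interferon receptor, was at 177, 110.0, 259 and 323 RPM against 408, 287, 459.5 and 526 RPM (-1.03 ± 0.18, adjusted p = 0.00157), with overlap between spleen Ly6Cint and blood Ly6C+ cells. Ifi47, a GTPase of cell defence, showed a fall of similar size (-1.11 ± 0.20, adjusted p = 0.00171), as did Gbp2 (-1.36 ± 0.29, adjusted p = 0.00695). Ifit3, Irf7, Mx1, Mx2, Oasl1, Rsad2, Usp18, Ifi27l2a, Gbp3, Xaf1, Dhx58, Bst2 and Cmpk2 made up the rest. Tested by tissue, 12 of the 38 fell in blood (median -1.02) and 0 in spleen (median -0.42), and no gene of the list passed the test of the difference between tissues. Over all tested genes 1.59% were lower in blood and 0.334% in spleen, and at the spleen share a count of 0 among 38 says little. The count of 18 ranged from 9 to 17 when single libraries were left out. It was 9 without blood Ly6C+ replicate A and 11 without blood Ly6C+ replicate B.

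The promoters of 2 of them are shown for the interferon-stimulated response element, here GAAA, any 2 bases and GAAA again, on either strand, in capitals, in the same RefSeq windows of 250 bases. Both genes lie on the minus strand, Isg15 at chr4:156200819-156201068 and Cxcl10 at chr5:92348890-92349139.
Isg15: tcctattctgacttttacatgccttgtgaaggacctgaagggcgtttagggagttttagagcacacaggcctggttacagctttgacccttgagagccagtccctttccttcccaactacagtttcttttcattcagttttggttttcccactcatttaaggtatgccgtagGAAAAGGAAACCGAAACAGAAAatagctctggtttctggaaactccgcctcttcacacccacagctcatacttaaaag
Cxcl10: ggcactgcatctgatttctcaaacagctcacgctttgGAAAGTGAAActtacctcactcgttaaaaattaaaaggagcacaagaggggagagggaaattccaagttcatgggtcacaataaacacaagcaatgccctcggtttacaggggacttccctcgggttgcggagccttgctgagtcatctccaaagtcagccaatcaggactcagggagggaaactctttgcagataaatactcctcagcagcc
Isg15 held 3 overlapping matches, the first beginning 78 bases before the start, and Cxcl10 held 1, beginning at 213. Of the 13 fallen interferon genes with an entry, 8 held the element, as did 6 of the 15 that did not pass. Among all tested genes with an entry it was found in 289 of 8481 (3.41%), in 23 of 282 genes called lower (8.16%) and in 5 of 202 called higher (2.48%).

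Of 40 monocyte transcription factor genes, 10 rose and 4 fell. The falls were 2 when any 1 of the 2 blood Ly6C+ replicates, blood Ly6Cint replicate B, spleen Ly6Cint replicate B and spleen Ly6C+ replicate A was left out. The members of the C/EBP family did not move together. Cebpa, the factor of early myeloid cells, was at 95.5, 95.5, 129.7 and 109 RPM in Ly6Cint and 340.5, 290.1, 190.1 and 150.3 RPM in Ly6C+ cells (-1.11 ± 0.21, adjusted p = 0.00271). By tissue its log2 ratio was -1.71 in blood (limma adjusted p = 0.00113) and -0.50 in spleen (limma adjusted p = 0.425). The difference between tissues did not pass for Cebpa (limma adjusted p = 0.8485). Cebpd was at 106, 163, 128 and 108 RPM against 270.4, 243, 189 and 194 RPM (-0.83 ± 0.17, adjusted p = 0.00417). Cebpb, the factor named in studies of Ly6C- monocyte survival, went up, at 2234, 2646, 939 and 1188 RPM against 928, 1403, 925 and 905 RPM (0.65 ± 0.19, adjusted p = 0.0465). Its 2 blood Ly6Cint libraries were the highest of the 8, while the 4 spleen libraries lay between 905 and 1188 RPM. The log2 ratio of Cebpb was 1.09 in blood (adjusted p = 0.0194) and 0.21 in spleen (adjusted p = 0.847), the difference between tissues did not pass (adjusted p = 0.885), and the pooled call was lost in 11 of 19 alternatives.

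Klf4 was at 1026, 1108, 569 and 845 RPM in Ly6Cint and 666, 626, 362 and 433 RPM in Ly6C+ cells (0.77 ± 0.15, adjusted p = 0.00299). Bhlhe40 (2.25 ± 0.28, adjusted p = 4.28e-05), Tcf7l2, a factor of the Wnt pathway (2.34 ± 0.33, adjusted p = 0.000203), and Runx2 (1.55 ± 0.23, adjusted p = 0.00024) had larger rises, and Pou2f2, Mef2c, Hes1 and Ets1 rose too. Runx2 went from 47.3, 90.3, 34.2 and 51.7 RPM in Ly6C+ to 159, 145, 146 and 173 RPM in Ly6Cint cells. Irf8, needed for the monocyte and dendritic cell lineage, fell slightly, to 822, 548, 926 and 689 RPM from 1026, 1227, 1280.1 and 1019.5 RPM (-0.63 ± 0.16, adjusted p = 0.0247), a call lost in 6 of 19 alternatives. Spi1 (0.44 ± 0.15, adjusted p = 0.103) and Klf2 (0.25 ± 0.16, adjusted p = 0.485) did not pass.

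Immediate early and feedback genes gave 4 rises and 3 falls among 27, with 1 fall without blood Ly6C+ replicate A. Fos, a chain of the AP-1 factor, showed a difference between tissues larger than that between populations: 839 and 566 RPM in blood Ly6Cint, 1700.2 and 1209 RPM in blood Ly6C+, 77.1 and 71.9 RPM in spleen Ly6Cint and 157 and 280.1 RPM in spleen Ly6C+ cells. Within each tissue both Ly6Cint values were the lower ones (-1.27 ± 0.19, adjusted p = 0.000348). Socs3, a feedback inhibitor of cytokine signalling, rose (1.13 ± 0.16, adjusted p = 0.000178), from 161, 181, 67 and 58.3 RPM to 312, 435, 137 and 143 RPM, again with both Ly6Cint values above both Ly6C+ values in each tissue. Zfp36l1, an RNA-binding protein that shortens messenger RNA life, rose (1.67 ± 0.29, adjusted p = 0.00135), and so did Dusp2, a phosphatase of MAP kinases (1.23 ± 0.21, adjusted p = 0.00135), and Jun (0.92). Atf3 fell (-0.80 ± 0.17, adjusted p = 0.00769), with 73.6, 71.9, 74.5 and 68.4 RPM in Ly6Cint and 162, 121, 119 and 108 RPM in Ly6C+ cells.

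Among 27 NF-kappaB and inflammatory genes 3 rose and 6 fell, with 3 falls without spleen Ly6Cint replicate B. The falls were chemokines in 4 cases. Ccl9, which attracts CCR1-bearing cells, was at 533, 462, 1182 and 705 RPM against 1706, 1688, 2014 and 1449 RPM (-1.34 ± 0.20, adjusted p = 0.000243). Ccl2, the ligand of CCR2, was at 3.94, 4.38, 0 and 0 RPM in Ly6Cint and 58.7, 35.1, 5.26 and 2.19 RPM in Ly6C+ cells (-2.66 ± 0.50, adjusted p = 0.00271), so that most of its signal lay in the 2 blood Ly6C+ libraries. Ccl4 and Ccl6 had log2 ratios of -2.49 and -0.68, Tnfaip2 one of -1.38 and Il6ra one of -0.57. Traf1, an adaptor of TNF receptors, rose from 9.2, 6.14, 6.13 and 16.2 RPM to 35.9, 51.7, 47.3 and 78 RPM (2.42 ± 0.34, adjusted p = 0.000187), and Nfkbiz (0.95) and Il1b, which encodes interleukin-1 beta (1.07), rose too.

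Complement genes gave 2 rises and 2 falls of 14, with 4 rises without blood Ly6Cint replicate B and 1 without spleen Ly6Cint replicate A. The rises were C1qc and Itgax, of which Itgax was already counted in lists above. C3, the central component, was at 55.6, 72.7, 103 and 45.6 RPM against 233, 205, 273 and 303 RPM (-1.91 ± 0.21, adjusted p = 1.54e-05), and Cfb, factor B of the alternative pathway, fell with it (-1.67 ± 0.30, adjusted p = 0.00162). C1qc, a chain of C1q and a marker of tissue macrophages, rose (2.24 ± 0.50, adjusted p = 0.00972), but its Ly6Cint values of 117, 163, 78.4 and 24.1 RPM overlapped the Ly6C+ values of 62.2, 48.2, 12.3 and 0.877 RPM. Spic, a factor of red pulp macrophages, was the only other of 15 tested macrophage markers to rise, with 18, 18, 64.9 and 73.2 RPM in Ly6Cint and 6.57, 2.19, 20.2 and 23.7 RPM in Ly6C+ cells (1.78 ± 0.34, adjusted p = 0.00289). Without blood Ly6Cint replicate B, 5 of these markers were called higher, and without spleen Ly6Cint replicate A, 1 was. Summed macrophage markers were 635.9 to 916.8 RPM in spleen Ly6Cint and 492.7 to 531.4 RPM in spleen Ly6C+ cells, and 762.8 to 1206 and 766.6 to 1072 RPM in the same order in blood. Of these markers only Mertk was at 0 in all 8 libraries. The part of macrophages in these rises was not tested. Of the remaining marker lists, 1 member rose among 11 B cell markers (Cd22), 1 among 10 platelet markers (Vwf) and 0 among 17 T and NK cell and 9 erythroid markers, and 0 members of these 4 lists fell. Plasmacytoid dendritic cell and basophil markers gave Runx2 as a rise and Bst2 as a fall among 6, both already counted above. The call of Cd22 was lost in 11 of 19 alternatives, and 0 B cell markers rose on leaving out any 1 library other than blood Ly6Cint replicate B. Without that replicate 1 T and NK cell marker and 2 plasmacytoid dendritic cell and basophil markers rose, and without spleen Ly6C+ replicate B 1 erythroid marker fell.

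Of 25 lysosome and cathepsin genes 2 rose, Cst3, the cathepsin inhibitor cystatin C (0.86 ± 0.15, adjusted p = 0.00148), and Ctsb (0.62), while Ctsc (-0.75), Ctse (-0.77) and Ctsl (-0.95) fell. The call of Ctsl was lost in 13 of 19 alternatives. The list had 1 fall without spleen Ly6Cint replicate B, 1 rise when 1 of the 2 blood Ly6C+ replicates was left out, and 1 of each without spleen Ly6C+ replicate A. Cst3 was at 6683, 7796, 5308 and 5317 RPM in Ly6Cint and 3704, 3886, 3084 and 3024 RPM in Ly6C+ cells, without overlap. The lists that follow held few calls, where 2.53% of all tested genes were higher and 3.39% lower, so their counts say little about the lists. Cell cycle genes gave 2 rises and 0 falls of 45, both of D-type cyclins: Ccnd1 (2.39 ± 0.34, adjusted p = 0.000204) and Ccnd2 (1.51 ± 0.42, adjusted p = 0.0379), the second of which was lost in 10 of 19 alternatives. The list had 1 rise without any 1 of the 4 blood libraries, spleen Ly6Cint replicate A or spleen Ly6C+ replicate A. Ccnd1 was at 91.6, 42.5, 78.4 and 96 RPM against 14.9, 24.1, 7.01 and 11.8 RPM. Of 25 glycolysis genes 2 rose and 4 fell. Hexokinases were among the falls, Hk2 (-0.80) and Hk3 (-0.89), as was Ldhb, a lactate dehydrogenase chain (-1.44), and Tkt, transketolase, rose (0.54) beside Eno3. The 4 falls became 0 without blood Ly6C+ replicate A, 1 without spleen Ly6C+ replicate A, and 2 without blood Ly6Cint replicate A, blood Ly6C+ replicate B, spleen Ly6Cint replicate B or spleen Ly6C+ replicate B. The 2 rises became 1 without blood Ly6C+ replicate B, spleen Ly6Cint replicate A or spleen Ly6C+ replicate A. Of 51 oxidative phosphorylation genes 1 fell, Ndufa1 (-0.73 ± 0.16, adjusted p = 0.00747), and 0 rose. The falls were 4 without blood Ly6Cint replicate B and 2 without spleen Ly6Cint replicate A. Of 74 cytosolic ribosomal protein genes 0 were called, with a median of -0.23. When 1 library at a time was left out, 0 to 1 of them were called higher and 0 to 2 lower.

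**Figure D4:**
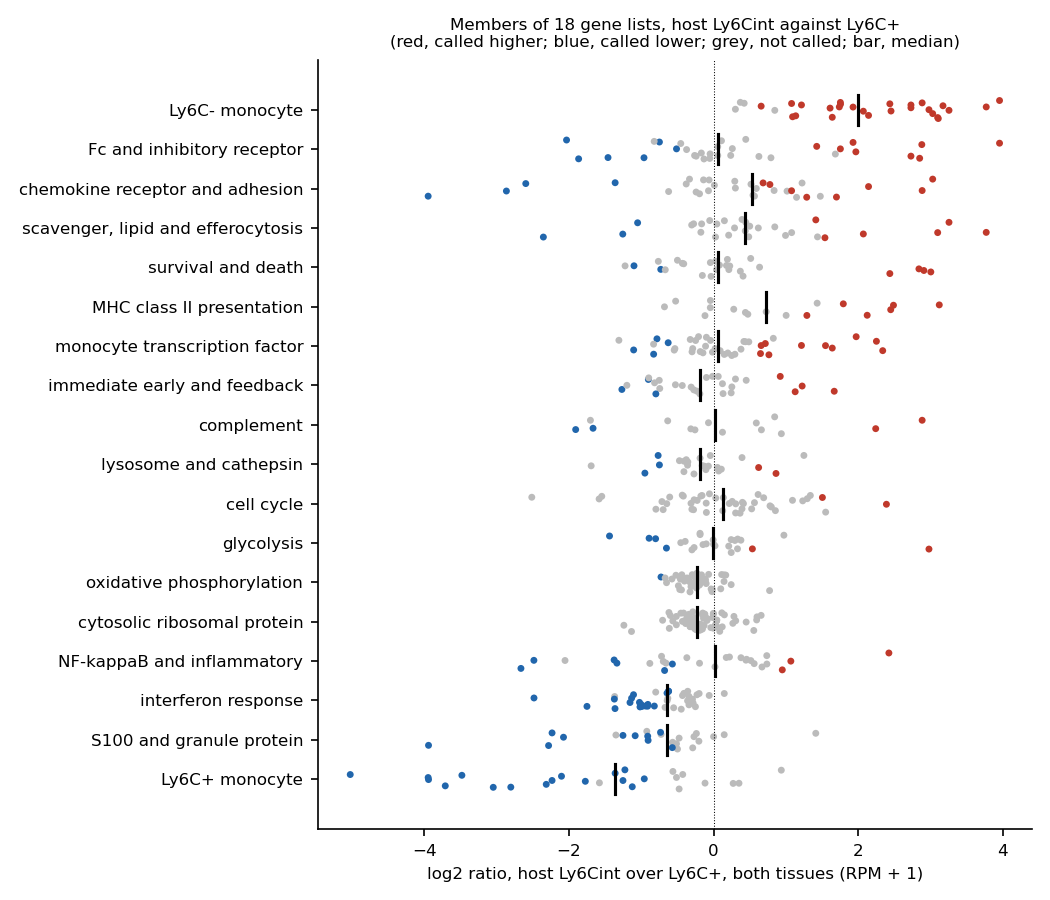
Log2 ratio of host Ly6Cint over Ly6C+ monocytes over both tissues (x axis, RPM plus 1) for each tested member of 18 gene lists; red points were called higher, blue points lower and grey points not called, and black bars are the list medians. Ly6C- monocyte genes (median 2.00) and Ly6C+ monocyte genes (median -1.36) lie at the ends, and receptor, transcription factor and inflammatory lists hold calls on both sides.

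The difference between tissues was tested as the spleen log2 ratio minus the blood log2 ratio. The limma test called 0 genes, with 577 at an unadjusted p under 0.05 and a smallest adjusted p of 0.849, so no gene can be called particular to a tissue. Without blood Ly6Cint replicate A, 8 genes were called, all with the spleen ratio above the blood ratio. Genes among the 4 with the smallest p in each direction are given as values that missed the threshold. Ifi30, a lysosomal thiol reductase of antigen processing, had 429.8 and 509 RPM in blood Ly6Cint, 1344 and 1092 RPM in blood Ly6C+, 1477 and 996 RPM in spleen Ly6Cint and 1240.2 and 1166 RPM in spleen Ly6C+ cells (difference 1.38, unadjusted p = 0.000549). Its Ly6Cint values were the lower ones in blood, while the spleen values of the populations overlapped. Slamf7, a receptor of the SLAM family, had log2 ratios of 0.50 in blood and 2.36 in spleen (difference 1.86). Hba-x, a globin close to other alpha globins, was at 0 in all 4 spleen libraries. On the other side stood Ccdc88c (-1.90), Clec4e, a receptor for mycobacterial glycolipid (-2.17), Naip5, a sensor of flagellin (-1.38), and Tmem51os1 (-2.12), an antisense transcript whose reads cannot be told from those of its partner without strand.

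Ly6Cint cells were also set against the midpoint, on the log2 scale, of host Ly6C+ and host Ly6C- cells of the same tissues. A gene away from the midpoint can still match Ly6C+ or Ly6C- cells, so a call does not place Ly6Cint cells outside both. Of 11433 genes, 36 lay above the midpoint (0.315%) and 21 below (0.184%). MHC class II genes lay above it: H2-Eb1 (2.25 ± 0.25, adjusted p = 0.000115), H2-Aa (2.03 ± 0.23, adjusted p = 0.000115), H2-Ab1 (2.00 ± 0.29, adjusted p = 0.00144) and Cd74 (1.62 ± 0.16, adjusted p = 3.78e-05). H2-Eb1 was at 508, 193, 3112 and 3593 RPM in Ly6C- cells. Its spleen Ly6C- values overlapped the spleen Ly6Cint values of 3335 and 4533 RPM, while its blood Ly6C- values lay around the blood Ly6C+ values. Ciita was not called (1.37 ± 0.37, adjusted p = 0.113).

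Cd7 had the largest value above the midpoint (2.80 ± 0.32, adjusted p = 0.000115). It was at 191 and 129.7 RPM in spleen and 25.9 and 32.9 RPM in blood Ly6Cint cells, against 11.4, 3.51, 9.64 and 8.77 RPM in Ly6C+ and 3.51, 1.31, 41.6 and 34.6 RPM in Ly6C- cells. Beside the class II genes, Cd209d (2.65), Sdc1, the proteoglycan syndecan-1 (2.57), C1qc (2.12) and Cd209a (1.96) lay above the midpoint, and Slamf7 (1.64) and Ccnd1 (1.89) also passed. Below the midpoint, Cd180, a Toll-like receptor relative that restrains lipopolysaccharide responses, was at 10.1, 6.13, 9.64 and 11 RPM in Ly6Cint, 27.2, 31.1, 26.3 and 32.4 RPM in Ly6C+ and 32.4, 37.3, 41.6 and 44.3 RPM in Ly6C- cells (-1.79 ± 0.25, adjusted p = 0.00144). All 4 Ly6Cint values were below the 8 others. Ifitm1 (-1.15), Gbp2 (-1.07), Gstm1, a glutathione transferase (-1.06), C3 (-0.94), Mgst1 (-0.90) and Cd84 (-0.88) were among the others with the largest departures. Ifitm1 averaged 34.3 RPM in Ly6Cint, near the 30.9 RPM of Ly6C+ cells, against 180 RPM in Ly6C- cells. C3 and Mgst1 averaged 69.2 and 224 RPM, near the 65.5 and 216 RPM of Ly6C- cells, against 253 and 733 RPM in Ly6C+ cells. The Ly6Cint means of Gbp2, Gstm1 and Cd84 lay below those of both neighbours. Of 20 alternatives, the midpoint call was lost in 15 for Gbp2 and for Cd84, 14 for Mgst1, 9 for C3, 8 for Ifitm1 and for C1qc and 2 for Gstm1, and in 0 for Cd180. Ly6c2 (0.01, adjusted p = 0.994) and F13a1 (0.15, adjusted p = 0.875) did not pass. With upper quartile scaling 37 genes lay above and 8 below, and with quantile scaling 34 and 9. Leaving out 1 library gave 5 to 50 genes above and 1 to 28 below. In spleen the counts above and below were 16 and 12 without Ly6Cint replicate A, 5 and 1 without Ly6Cint replicate B, 10 and 2 without Ly6C- replicate A, 10 and 3 without Ly6C- replicate B, 14 and 3 without Ly6C+ replicate A and 22 and 5 without Ly6C+ replicate B. In blood they were 14 and 3 without Ly6C- replicate B, and 5, 9 and 13 lay below without Ly6C- replicate A, Ly6C+ replicate A and Ly6C+ replicate B.

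The independent blood libraries of 7-week mice were tested in the same way. Of 10369 genes, 367 were higher (3.54%) and 421 lower (4.06%) in Ly6Cint (n = 3) than in Ly6C+ cells (n = 4). Of the 280 genes higher in hosts, 275 were tested there, 261 had the same sign and 145 were called higher, which is 52.7% of the host calls and 39.8% of the 364 7-week calls tested in hosts. Of the 375 lower genes, 371 were tested, 334 had the same sign and 163 were called lower, 43.9% of the host calls and 39.1% of the 417 7-week calls. Over 10111 genes tested in both, Pearson's r of the log2 ratios was 0.457, a description across genes that are not independent. It was 0.362 between blood and spleen of the hosts over all tested genes.

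Cd300e had a log2 ratio of 5.25 at 7 weeks, Itgax 4.01, H2-Eb1 3.92, Vcan -4.73 and C3 -1.89, all of them called in the direction seen in hosts. The fall of Ccr2 was not seen there: 1376, 1517 and 1263 RPM in Ly6Cint and 2058, 1461, 329 and 889 RPM in Ly6C+ cells (0.51 ± 0.44, adjusted p = 0.489). Cebpb had a log2 ratio of opposite sign (-0.40 ± 0.21, adjusted p = 0.266), with 683, 724 and 645 RPM against 671, 820.2, 1225 and 970.4 RPM. Cd180, lower in hosts (-1.59), also had the opposite sign (0.85 ± 0.53, adjusted p = 0.33). Socs3 (-0.06 ± 0.25, adjusted p = 0.896), Ms4a8a (-0.53 ± 0.35, adjusted p = 0.36), Plcb1 (-0.68 ± 0.41, adjusted p = 0.323), Lpl (-0.63 ± 0.34, adjusted p = 0.257) and Bcl2l11 (-0.12 ± 0.29, adjusted p = 0.831) did not pass, and Cx3cr1, not called in hosts, was higher (1.19 ± 0.24, adjusted p = 0.00875). Further named genes missed the threshold there. Among them were Adrb1 (1.54, adjusted p = 0.223), Cebpa (-0.96, adjusted p = 0.193), Msr1 (-0.76, adjusted p = 0.164), Gbp2 (-0.66, adjusted p = 0.193) and C1qc (0.34, adjusted p = 0.765). The difference between hosts and 7-week mice was not tested, since the tables were scaled separately. A single gene was called in opposite directions, Pira6, named after its values were seen. It was at 15.8, 22.8, 39 and 21.5 RPM in host Ly6Cint and 36.4, 48.2, 54.8 and 47.8 RPM in host Ly6C+ cells (-0.95 ± 0.27, adjusted p = 0.0433), and at 37.4, 40.6 and 20.8 RPM and 12.1, 5.58, 4.81 and 4.5 RPM at 7 weeks (2.17 ± 0.45, adjusted p = 0.0103). Its family holds near-identical receptors, so the assignment of its reads is uncertain.

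The gene lists, chosen with earlier results of these data known, were also counted at 7 weeks. There 3.54% of all tested genes were higher and 4.06% lower. At 7 weeks 26 of 30 Ly6C- monocyte genes rose and 13 of 25 Ly6C+ monocyte genes fell, with medians of 2.20 and -1.27 against -0.056 over all genes. The 13 again include Ly6c2. Of 17 class II genes 7 rose and 1 fell, and of 38 interferon response genes 13 fell and 0 rose. Ribosomal protein genes gave 10 rises among 74 (median 0.34), where hosts had 0 and a median below that of all genes. Leaving out 1 of the 3 Ly6Cint libraries cut the 7-week calls to 136 higher and 160 lower (without replicate 3), 110 and 125 (without replicate 2) or 144 and 171 (without replicate 1). Without Ly6C+ replicate 1 the higher genes were 708, and without Ly6C+ replicate 2 the lower genes were 260.

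**Figure D5:**
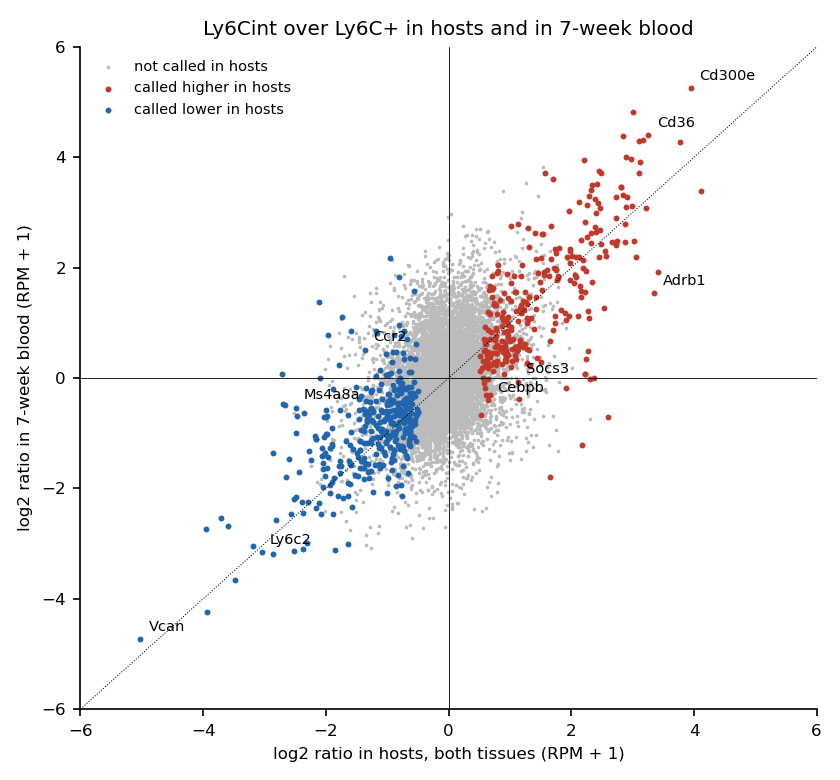
Log2 ratio of Ly6Cint over Ly6C+ monocytes in hosts over both tissues (x axis) and in 7-week blood (y axis), on RPM plus 1, for the 10111 genes tested in both; red and blue points were called higher and lower in hosts, and the dotted line marks equal ratios. Cd300e and Vcan lie near opposite ends of the line, whereas Ccr2 and Cebpb lie across the zero line of the 7-week axis.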

How the data were processed

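Host monocytes of the transfer experiment were analysed, with 7-week blood libraries beside them. The transfer values are scores as the authors deposited them: each library was brought to nearly 1 total (2281423 to 2282712) and rounded. For the 7-week table they deposited signal values, gene reads scaled per library. Per the submitters' processing notes bcl2fastq, HISAT 0.1.5, SAMtools and HOMER were used with build mm9, and counting options are not given in the sources used here. Both units are not counts, so the test planned for normalized values was used. Values were divided to 1000000 per library over the 24421 listed genes (RPM). Low values are multiples of a step, from which depth was estimated. All 7-week values are whole reads within 0.1 read (100%), which says nothing for Ly6Cint replicate 2, whose step is near a power of 10.

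Genes with 2 RPM in 2 libraries (3 at 7 weeks) were tested with limma 3.58.1 (trend, R 4.3.3) on log2(RPM + 1), with tissue as a block for the main comparison and 1 mean per group otherwise, and called at an adjusted p under 0.05. A fold is on that scale, which understates changes of low genes. Error values are standard errors of the fit unless SD is named. The fits were tested on simulated data. Alternatives covered pseudocounts, filters, scalings, array weights, larger fits, a replicate block and each library left out, and, added after the data were seen, edgeR 4.0.16 on recovered 7-week reads. Replicate letters were not used as pairs, since no label says what they mark. Deviations from group means hardly correlated between libraries of the same letter (-0.005 to 0.085), which cannot exclude shared animals or days. The comparison and the gene lists were chosen with earlier results of these data known. Named were the 15 largest called changes per direction without overlap and with at least 20 RPM in the higher population, up to 5 called members per list with the smallest p, 16 fixed genes, the 4 smallest p per direction between tissues and the 8 largest per direction for the midpoint; other called members were added after their values were seen, and 1 gene that these rules chose is not reported here. The other 18 columns of the 7-week table and the knockout table were left out, as not part of these comparisons. Promoters came from RefSeq (GRCm38.p6), not the build of the files, so no other coordinates are given.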

Additional observations from a re-analysis of the deposited data

Results flagged for a closer look

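For 3 genes both Ly6Cint libraries lay on one side of the Ly6C+ libraries in blood and on the other in spleen, among the genes with the smallest p for the tissue difference. The difference, spleen log2 ratio minus blood log2 ratio, missed the adjusted threshold in each. Ccdc88c had a difference of -1.90, with 57.8 and 90.7 RPM in blood Ly6Cint and 20.2 and 35.1 RPM in blood Ly6C+ cells, and 31.1 and 33.7 RPM and 48.6 and 43.4 RPM in spleen (limma adjusted p = 0.849). For Clec4e the difference was -2.17, with 51.7 and 40.7 RPM against 18 and 16.7 RPM in blood and 17.5 and 33.7 RPM against 35.9 and 53 RPM in spleen (limma adjusted p = 0.849). Naip5 differed by -1.38, with 128 and 164 RPM against 60.9 and 90.3 RPM in blood and 67.5 and 76.7 RPM against 87.2 and 108 RPM in spleen (limma adjusted p = 0.849). With 2 libraries against 2 in each tissue, such a pattern has little weight by itself.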

How the results depend on the processing

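Of 98 genes chosen to be named in the comparison over both tissues 95 were called. Of these, 60 stayed called under all 19 alternatives, 35 were lost under at least 1, and 0 reversed. Calls were fewer in a fit of all 26 libraries, with 172 higher and 120 lower over both tissues, 51 lower in blood and 12 lower in spleen. The 12 host libraries in 1 fit gave 233 higher in blood and 118 higher in spleen. With no filter on low values the counts were 16 higher and 23 lower in blood, 0 and 0 in spleen, and 3 above and 1 below the midpoint. Array weights gave 121 higher and 100 lower in spleen, and a pseudocount of 0.5 gave 22 lower in spleen and 12 below the midpoint, where quantile scaling gave 9 and upper quartile scaling 8. Leaving out 1 library gave 171 to 275 higher and 200 to 380 lower over both tissues, 38 to 157 and 25 to 240 in blood, 0 to 72 and 0 to 70 in spleen, 0 to 8 and 0 to 0 for the tissue difference, 5 to 50 above and 1 to 28 below the midpoint, and 110 to 708 and 125 to 517 at 7 weeks. An arm left with 1 library is assumed to vary like the others. The cause of these changes was not tested. A replicate block was also fitted, though no label says that replicate letters or numbers pair the samples. It gave 253 higher and 320 lower over both tissues, 56 above and 34 below the midpoint, and 278 and 275 at 7 weeks. For the 7-week libraries edgeR with TMM on recovered reads called 380 higher and 349 lower. At the depth of these libraries 1 read is worth about 1 RPM, so values under 3 reads cannot be told from 0. Of the list medians over both tissues, that of glycolysis genes changed sign with quantile and upper quartile scaling (-0.006 to 0.010 and 0.009). Leaving out a library changed the sign of those of the Fc receptor, NF-kappaB, complement, transcription factor, glycolysis, erythroid, platelet, and T and NK cell lists.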
